A study of Rattus norvegicus with 10 samples.

Results

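Glipr1, Ampd3 and Tbc1d4 were 3 of the 14217 genes measured in axons of rat sensory neurons, and they were represented by 4 of the 31042 probe sets that were not controls. They were chosen by their measured levels, for large differences between adult and embryonic axons with no overlap of the stages, among genes outside the usual macrophage lists. Their own stage differences are therefore given as a description, with no test. The RNA came from axons of adult rat dorsal root ganglia (5 arrays) and of dorsal root ganglia from rats at embryonic day 16 (5 arrays). Ganglion explants of both stages were grown for 4 days in chambers with compartments, and axons longer than 1 cm were collected in the outer compartment. The labels give neither strain, sex nor adult age, and call the 5 samples of a stage biological replicates. The p-values measure the spread between these samples.

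The 3 genes belong to unrelated families. Glipr1, glioma pathogenesis-related protein 1, is a member of the CAP superfamily of mostly secreted, cysteine-rich proteins, and has been described as a p53 target gene in human and mouse cells. Ampd3 is the AMP deaminase isoform first known from human erythrocytes. It turns AMP into IMP, a step that feeds the purine nucleotide cycle and controls the adenylate pool. Tbc1d4, also called AS160, is a Rab GTPase-activating protein and a substrate of the kinase Akt. In fat and muscle cells it holds vesicles with the glucose transporter Glut4 inside the cell until insulin signalling leads to its phosphorylation.

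Values are log2 RMA levels (robust multi-array average). The background level of each array was set from 65 genes of other tissues with 77 probe sets, 95% of which lay below it. It ranged from 2.95 to 4.14 on adult and from 3.21 to 4.13 on embryonic arrays. Sensory neuron and axon markers were above it on all 5 arrays for 9 of 17 genes in adult and 13 of 17 in embryonic samples. The poly-A controls added before labelling averaged 10.66 ± 1.70 on adult and 2.26 ± 0.31 on embryonic arrays (SD, n = 5 each; two-sided exact permutation p = 0.0079, or 0.0397 after adjustment over 5 array measures). Labelling and stage cannot be told apart for any gene below. The standard deviation of all values was wide on 4 arrays (adult replicates 4 and 5, embryonic replicates 1 and 5) and narrow on 6. In these bulk samples, fewer cells of a type and less RNA per cell cannot be told apart.

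Glipr1 lies on chromosome 7 (49373579 to 49399190, GRCr8) and had 1 probe set, 1373504_at. Its level was 8.03, 7.71, 7.47, 7.39 and 6.58 on adult replicates 1 to 5, against 2.82, 3.77, 2.67, 3.29 and 3.61 on embryonic replicates 1 to 5. All adult arrays were high and lay within 1.45 of each other. The lowest adult array was 2.82 above the highest embryonic one. The means were 7.43 ± 0.54 in adult and 3.23 ± 0.48 in embryonic samples (SD, n = 5 each), a difference of 4.20 on the log2 scale. Glipr1 was above background on 5 of 5 adult arrays and on 2 of 5 embryonic arrays, replicates 2 and 5. On these 2 it was barely above the background level (3.77 against 3.33, and 3.61 against 3.40). On each of them 4 of the 65 genes of other tissues also lay above that level, so this does not show that the transcript was present.

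Ampd3 lies on chromosome 1 (174319526 to 174364605, GRCr8) and had 1 probe set, 1368342_at. Its level was 7.49, 5.49, 6.91, 6.24 and 5.67 on adult replicates 1 to 5, against 1.90, 1.99, 2.72, 1.84 and 2.17 on embryonic replicates 1 to 5. The adult arrays varied over 2.00, with replicate 1 highest and replicate 2 lowest, and the stages were separated by 2.76. The means were 6.36 ± 0.84 in adult and 2.13 ± 0.36 in embryonic samples, a difference of 4.23. Ampd3 was above background on 5 of 5 adult arrays and 0 of 5 embryonic ones. Against the background level its fold was at least 6.73 higher in adult samples.

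Tbc1d4 lies on chromosome 15 (84670756 to 84848876, GRCr8) and had 2 probe sets with different behaviour. The one with the higher mean, 1385138_at, was at 6.94, 8.30, 9.37, 7.84 and 6.02 on adult replicates 1 to 5, against 2.87, 2.68, 2.47, 2.55 and 2.37 on embryonic replicates 1 to 5. The adult arrays varied over 3.35, a range more than that of the other members, while the embryonic arrays lay within 0.50. The means were 7.70 ± 1.28 in adult and 2.59 ± 0.20 in embryonic samples, a difference of 5.11. It was above background on 5 of 5 adult and 0 of 5 embryonic arrays, so its fold was at least 17.0 higher in adult samples.

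The other probe set of Tbc1d4, 1378254_at, was at 2.21, 4.43, 2.96, 5.14 and 1.98 on adult replicates 1 to 5, against 1.73, 1.94, 1.69, 1.66 and 1.52 on embryonic replicates 1 to 5. It was above background on 2 of 5 adult arrays, replicates 2 and 4, and on 0 of 5 embryonic arrays. The stages did not overlap, but the lowest adult array was only 0.04 above the highest embryonic one. The means were 3.34 ± 1.39 and 1.71 ± 0.15, a difference of 1.63. Adult replicate 5 was lowest by both probe sets, whereas replicate 3 was highest by the first and replicate 4 by the second. With both averaged, the difference of Tbc1d4 was 3.37.

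**Figure D1:**
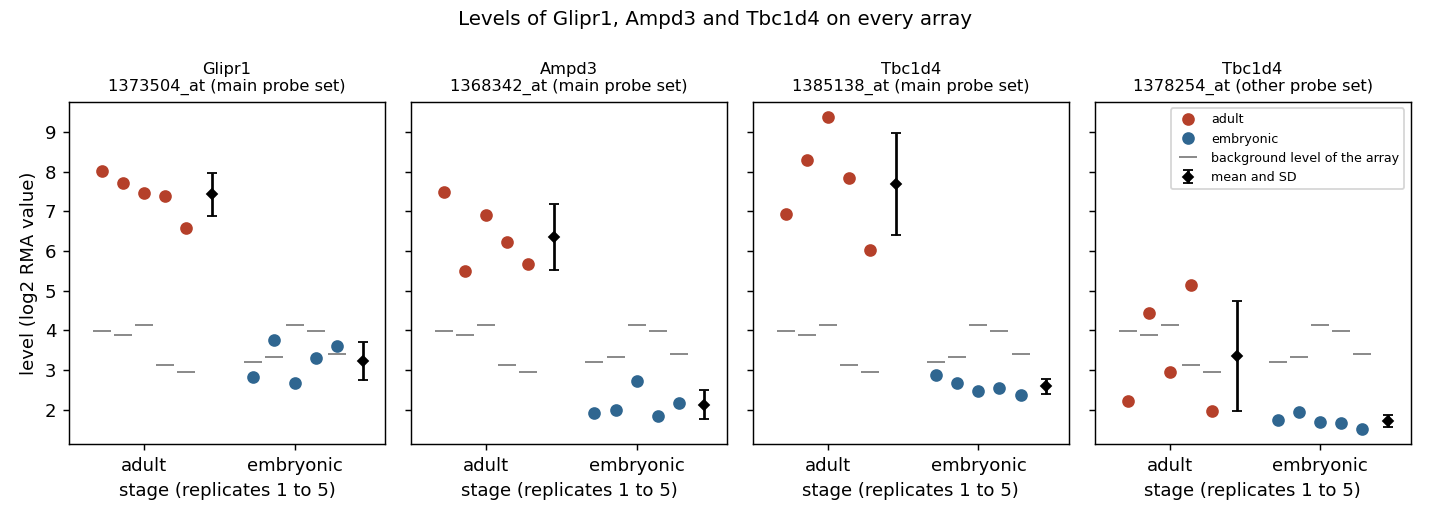
Level (log2 RMA value) of the 4 probe sets of Glipr1, Ampd3 and Tbc1d4 on 5 adult arrays (left) and 5 embryonic arrays (right), replicates 1 to 5 from left to right, with the background level of each array as a grey dash and the mean with its SD as a diamond. Glipr1, Ampd3 and the first Tbc1d4 probe set lie above background on 5 of 5 adult arrays, and the second Tbc1d4 probe set on 2 of 5.

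A promoter sequence from RefSeq (GRCr8) was matched for Tbc1d4, 1 of the 3 genes, and is shown for that reason. Shown is the 67-base part of the window that lies outside the annotated gene span, chr15:84848877-84848943, minus strand, with the letters GGAA, the core bound by ETS-family transcription factors, in capitals.
Tbc1d4 upstream: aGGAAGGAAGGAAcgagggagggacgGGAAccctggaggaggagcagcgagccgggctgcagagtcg
This stretch holds GGAA 4 times on the strand shown. The whole 300-base window held 8 matches to GGAA, counted on both strands, and 3.9% of 33469 RefSeq promoter windows held at least as many, while 95.8% held at least 1. It also held 4 matches to the GC box GGGCGG (at least as many in 4.64% of windows), 1 to CCAAT (37.5%) and 0 to the AP-1 motif TGACTCA, which 4.63% of windows held. Matches of different motifs overlapped in 1 pair. Such matches describe letters only. The motifs were picked after the sequence was seen.

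Over all genes, 1.26% passed limma's test in either direction, and for 1.67% the stages did not overlap with adult samples higher. Over all probe sets these shares were 0.374% for passing the test with adult samples higher and 1.16% for no overlap with adult samples higher. All 4 probe sets of the members had no overlap, for which they were chosen. Among the 14217 genes, 51 had a level at least 4 higher in adult samples on the log2 scale (0.359%), and in 37 of these the stages did not overlap (0.26%). Glipr1, Ampd3 and Tbc1d4 were all among the 37, as the choice of members fixed. Genes of about the same rise were Upp1, a uridine phosphorylase (4.17, just below Glipr1), Cd68, a lysosomal glycoprotein of macrophages (4.24, just above Ampd3), and the cathepsin Ctsc (5.09, just below Tbc1d4). On the other side of each member were Gpnmb (4.21), Lypd8l1 (4.22) and Ptgs2 (5.17). The stages overlapped for Cd68, Gpnmb and Ptgs2. All of these were named after their values were seen. Ampd3 and Tbc1d4 also belonged to the 10 of the 51 genes that were below background on all 5 embryonic arrays.

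**Figure D2:**
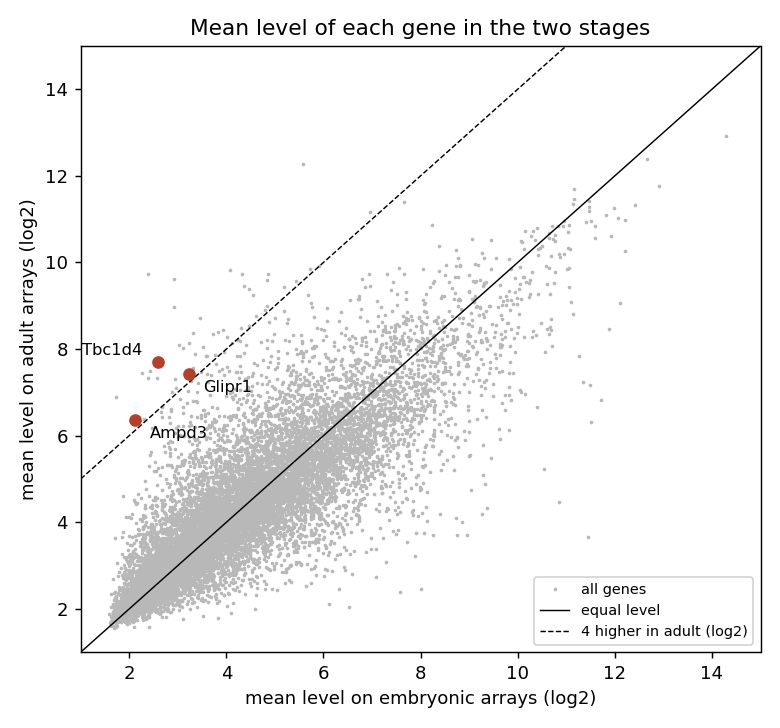
Mean level of each of 14217 genes on adult arrays (vertical axis, log2) against embryonic arrays (horizontal axis, log2), with lines for equal level and for a level 4 higher in adult samples. Tbc1d4, Glipr1 and Ampd3 lie above the dashed line at embryonic means of 2.59, 3.23 and 2.13.

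The members were compared with 7980 genes that were above background on at least 5 of 10 arrays, by Pearson correlation over the 10 arrays as a description of likeness. As deposited, this measure mostly follows the stage difference. Cxcl13, a chemokine that attracts B cells, was among the 3 closest genes of each member, with r of 0.98 for Glipr1 and 0.97 for both Ampd3 and Tbc1d4. The others for Glipr1 were C1h16orf54 (0.96) and Dennd4c (0.96). For Ampd3 they were the TNF receptor family member Tnfrsf14 (0.98) and the high-affinity Fc receptor Fcgr1a (0.98). For Tbc1d4 they were Rgs1, a regulator of G-protein signalling in leucocytes (0.98), and the innate receptor Tlr1 (0.97).

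These 7 genes themselves rose in the adult samples, which the likeness as deposited fixes. Fcgr1a was the only one of the 7 above background on all 5 embryonic arrays, at 8.91 ± 0.86 in adult and 4.80 ± 0.59 in embryonic samples (SD, n = 5 each), a rise of 4.11 ± 0.44 (SE; limma adjusted p = 0.0019). The other 6 were below background on all embryonic arrays, so their folds are lower bounds. These were at least 69.5 for Cxcl13 (limma adjusted p = 8.1e-06), 13.3 for C1h16orf54 (0.0015), 13.2 for Tnfrsf14 (0.0015), 10.5 for Rgs1 (0.011), 6.86 for Tlr1 (0.022) and 3.94 for Dennd4c (0.0053). A second probe set of C1h16orf54 also rose (7.21 in adult and 2.52 in embryonic samples, a mean under every embryonic background level; adjusted p = 0.0013), and 1 more had a difference of 0.36 (adjusted p = 0.80). Tlr1 lost the call without adult replicate 4 (adjusted p = 0.061) and without embryonic replicates 1 (0.053), 2 (0.060), 3 (0.054) or 5 (0.066).

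With the mean of each stage removed, the 3 members had little pattern in common. Over the 10 arrays r was 0.28 between Glipr1 and Ampd3, 0.30 between Glipr1 and Tbc1d4 and 0.11 between Ampd3 and Tbc1d4, against 0.96, 0.95 and 0.93 as deposited. Only Tbc1d4 kept leading genes under both measures, Rgs1 (0.91) and Tlr1 (0.91), and B4galt7, a glycosaminoglycan synthesis enzyme, followed (0.91). Rgs1 was at 5.85, 7.16, 9.20, 7.24 and 5.54 on adult replicates 1 to 5, highest on replicate 3 and lowest on replicate 5 as Tbc1d4 was. Closest to Glipr1 were the adenosine receptor Adora1 (0.84), Klhl42 (0.82) and the axonal adhesion molecule Nfasc (0.82). For Ampd3 they were Mfsd4b1 (0.91), the splicing factor Tfip11 (0.90) and Zfp438 (0.90). These 6 genes and B4galt7 had stage differences between -0.27 and 0.47, and none passed the test (adjusted p of 0.87 or more). The embryonic values of Ampd3 and Tbc1d4 in this measure were all below background, and those of Glipr1 on 3 of 5 arrays.

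The nearest measured genes on the chromosome did not pass the test. Beside Glipr1, Krr1, a factor of ribosome assembly, was at 5.77 ± 0.65 in adult and 4.69 ± 1.00 in embryonic samples (SD, n = 5 each; adjusted p = 0.51), and the potassium channel Kcnc2 was at 3.29 ± 0.84 and 3.44 ± 0.74 (adjusted p = 0.97). Beside Ampd3, the peptide gene Adm was below background on all 10 arrays, and rnf141 was at 4.88 ± 1.05 in adult and 3.29 ± 1.19 in embryonic samples (adjusted p = 0.41). Beside Tbc1d4, the transcription factor Klf12 was above background on 0 adult arrays and 1 embryonic array, and Commd6 was at 4.06 ± 2.04 and 4.12 ± 1.61 (adjusted p = 0.99).

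The other genes of AMP and purine metabolism were set beside Ampd3. Of 33 such genes 0 passed the threshold of limma's adjusted p of 0.05 in either direction, against 0.612% higher and 0.647% lower over all genes, and 5 had an unadjusted p under 0.05. Of all 14217 genes 1890 had one (13.3%), the share beside which the unadjusted counts of every list stand. Their median difference was 0.58, and that of all genes was -0.0009. Ampd2 was at 5.79 ± 0.53 in adult and 6.75 ± 1.35 in embryonic samples (SD, n = 5 each; adjusted p = 0.70) and was above background on all 10 arrays. Ampd1, the muscle isoform, was above background on 0 adult arrays and 1 embryonic array. By the main probe set of Ampd2, the embryonic samples thus had a deaminase transcript above background although Ampd3 was below it. The other probe set of Ampd2 was at 3.00 in adult and 3.83 in embryonic samples, within the range of background levels (adjusted p = 0.26).

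Adsl, the lyase of the last step from IMP back to AMP in the purine nucleotide cycle, was at 6.01 ± 1.78 in adult and 4.58 ± 0.44 in embryonic samples (adjusted p = 0.59). Adk, the kinase that makes AMP from adenosine, was at 5.35 ± 1.22 and 4.23 ± 0.40 (adjusted p = 0.53). The stages did not overlap for 2 of the 33 genes, with adult samples higher (1.67% over all genes). These were Ada, adenosine deaminase (5.40 ± 1.43 in adult and 3.13 ± 0.62 in embryonic samples; adjusted p = 0.17), and Nt5e, the ectoenzyme that makes adenosine from AMP (3.48 ± 0.78 and 2.32 ± 0.41; adjusted p = 0.28), both named after their values were seen.

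Insulin signalling, Akt and Glut4 traffic genes were set beside Tbc1d4. Of 37 such genes 0 passed in either direction, with 5 at an unadjusted p under 0.05 (13.3% over all genes) and a median difference of -0.14. Slc2a4, which encodes Glut4, was below background on all 10 arrays. The insulin receptor Insr was above it on 0 adult arrays and 1 embryonic array. The kinase Akt2 was at 4.17 ± 1.36 in adult and 3.63 ± 0.84 in embryonic samples (adjusted p = 0.90). The Rab proteins that are substrates of Tbc1d4 in vitro were above background on all 10 arrays for Rab8a and Rab14 and on 9 for Rab10. By its main probe set Rab14 was at 8.19 ± 0.82 in adult and 7.76 ± 0.42 in embryonic samples (adjusted p = 0.85), Rab8a at 5.91 ± 1.45 and 6.05 ± 0.64 (adjusted p = 0.98), and Rab10 at 5.22 ± 1.37 and 6.89 ± 0.54 (adjusted p = 0.33). The other probe set of Rab10 was at 5.16 in both stages.

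Of 33 other TBC domain RabGAP genes, 0 rose and 2 fell (0.612% and 0.647% over all genes), with a median difference of 0.20. An unadjusted limma p under 0.05 was reached by 8 of them (13.3% over all genes). For 4 of the 33 the stages did not overlap with adult samples lower, as for 1.86% of all genes. Tbc1d1, the closest relative of Tbc1d4, was above background on all 10 arrays, at 6.29 ± 0.95 in adult and 5.69 ± 1.23 in embryonic samples (SD, n = 5 each; adjusted p = 0.88). Tbc1d9b was at 4.55, 4.53, 5.88, 6.60 and 5.90 on adult replicates 1 to 5, against 9.09, 9.63, 9.44, 9.53 and 9.55 on embryonic replicates 1 to 5. Its embryonic arrays were all high and close together, and its change was -3.96 ± 0.41 (SE; adjusted p = 0.0015). The other probe set of Tbc1d9b had a difference of 0.01 (adjusted p = 0.99). Its means, 2.47 in adult and 2.45 in embryonic samples, lay under every background level, so it tells little of that change. Sgsm2, another RabGAP, was below background on each adult array and lower by at least 3.13-fold (2.95 ± 0.36 against 5.27 ± 0.55, SD; adjusted p = 0.0072). That call was lost with the replicate number as a block (adjusted p = 0.057).

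For Glipr1, 4 other genes of the CAP superfamily were measured, Pi16, Crisp2, Crisp3 and Crispld2, and 0 passed the test or an unadjusted p under 0.05. Their differences lay between -0.14 and 0.60, and none was above background on all arrays of a stage. For 4 of 17 p53 target genes the stages did not overlap with adult samples lower, as for 1.86% of all genes. An unadjusted limma p under 0.05 was reached by 6 of the 17 (13.3% over all genes), and their median difference was -0.83. By the adjusted p, 0 rose and 1 fell (0.612% and 0.647% over all genes). The one that fell was Sesn2, a stress-induced inhibitor of mTOR signalling, with a change of -2.37 ± 0.32 (SE; 3.88 ± 0.42 in adult and 6.25 ± 0.55 in embryonic samples, SD; adjusted p = 0.0074). Its other probe set had means under every background level in both stages (2.28 in adult and 2.04 in embryonic samples, adjusted p = 0.92), so it tells little of that change. The cell cycle inhibitor Cdkn1a was at 6.08, 6.99, 5.34, 9.22 and 7.02 on adult replicates 1 to 5, against 9.62, 9.72, 9.96, 10.16 and 9.63 on embryonic replicates 1 to 5, and missed the threshold (adjusted p = 0.055). It passed in 8 of 21 alternative settings, with adjusted p from 0.0049 to 0.53 over the 21. The other probe set of Cdkn1a had a difference of -1.15 (adjusted p = 0.67). Mdm2, the ubiquitin ligase of p53, was at 5.79 ± 1.35 in adult and 8.11 ± 1.73 in embryonic samples (adjusted p = 0.36). Its other probe sets had differences of -2.95 (adjusted p = 0.25) and -0.40 (adjusted p = 0.80).

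**Figure D3:**
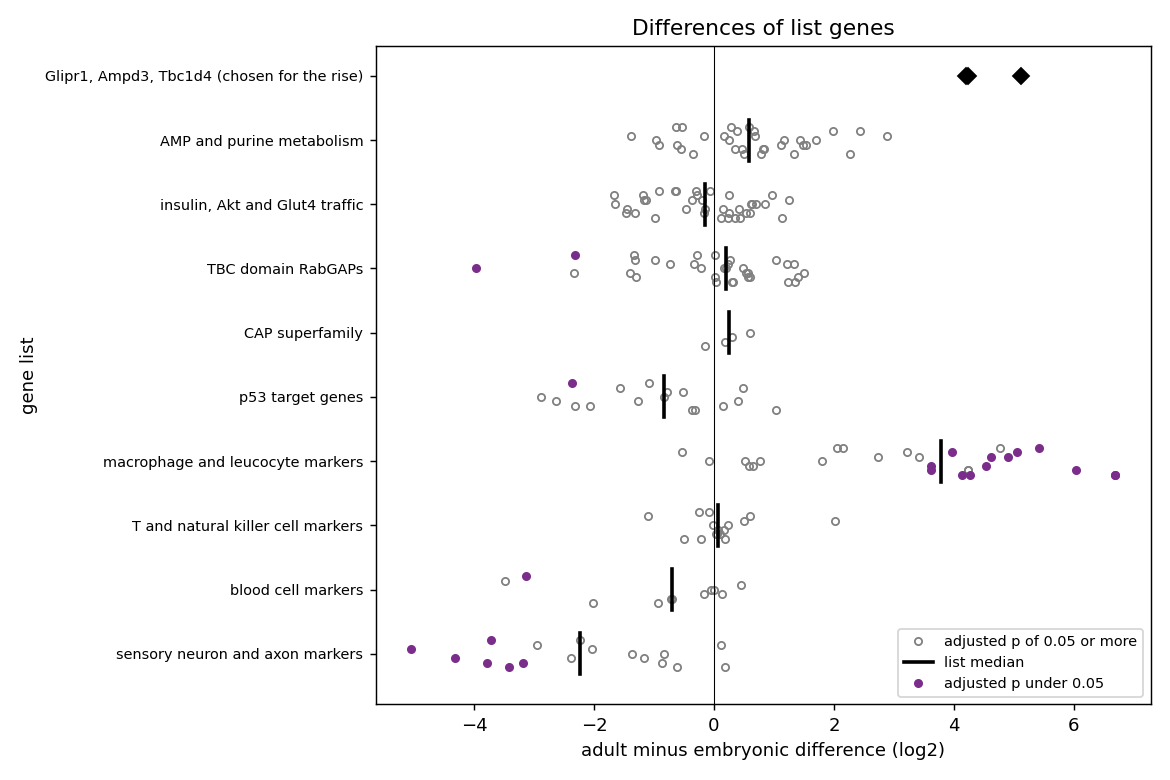
Adult minus embryonic difference (log2) of each gene of 9 lists, filled where limma's adjusted p was under 0.05, with the list median as a bar and the differences of Glipr1, Ampd3 and Tbc1d4 in the top row. The medians of the AMP and purine, insulin, TBC domain and CAP lists lie between -0.14 and 0.58, that of p53 targets at -0.83 and that of macrophage and leucocyte markers at 3.79.

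Markers of other cells were measured in the same samples. Of 28 macrophage and leucocyte markers 13 rose and 0 fell (0.612% and 0.647% over all genes), with a median difference of 3.79. An unadjusted limma p under 0.05 was reached by 21 of the markers (13.3% over all genes). Their mean level ranged from 6.45 to 8.10 over adult arrays and from 3.45 to 5.92 over embryonic arrays. Adgre1, a surface receptor of macrophages, rose by 6.69 ± 0.75 (SE; adjusted p = 0.0022), and the leucocyte phosphatase Ptprc by 4.91 ± 0.59 (adjusted p = 0.0039). A second Ptprc probe set had a difference of 0.83 (adjusted p = 0.27), with means under every background level of their stage (2.94 in adult and 2.10 in embryonic samples). Leaving out adult replicate 1, 3 or 4 gave 8, 7 and 7 rising markers, leaving out embryonic replicate 2, 3, 4 or 5 gave 7, 7, 8 and 7, and leaving out embryonic replicate 1 gave 18. Within the 4 arrays of wide spread limma called 0. Of the 28 markers, 21 exceeded background on every adult array and 4 on every embryonic one.

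Embryonic replicate 1 stood apart in these markers. It held 23 of the 28 above background, against 13, 5, 7 and 13 on embryonic replicates 2 to 5, and 22 of the 28 were highest there among embryonic arrays. Over all genes 18.6% were highest on that array. Of all 14217 genes, 8820 were above background on it, against 8108, 5622, 5879 and 8191 on embryonic replicates 2 to 5. Adgre1 was at 5.61 on it and between 1.94 and 2.78 on the other embryonic arrays. Of the 51 genes with a difference of at least 4, 39 were above background on embryonic replicate 1, against 21, 6, 9 and 24 on embryonic replicates 2 to 5. Glipr1, Ampd3 and Tbc1d4 were below background on that same array, at 2.82, 1.90 and 2.87 (background 3.21). So were Cxcl13 (2.04), Tnfrsf14 (1.95), Rgs1 (2.68) and Tlr1 (2.01), among the genes most like the members as deposited, while Fcgr1a (5.47) was above it. The choice of Glipr1, Ampd3 and Tbc1d4 for large rises without overlap favoured low values on every embryonic array, this one included. Without it the members' differences were 4.10, 4.18 and 5.18. Over adult arrays the marker mean was highest on replicate 4 and lowest on replicate 5. Glipr1 and Tbc1d4 were also lowest on replicate 5, while their highest arrays were replicates 1 and 3. Ampd3 was lowest on adult replicate 2 (5.49) and highest on adult replicate 1 (7.49). The part of macrophages or leucocytes in the levels of the 3 genes was not tested.

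**Figure D4:**
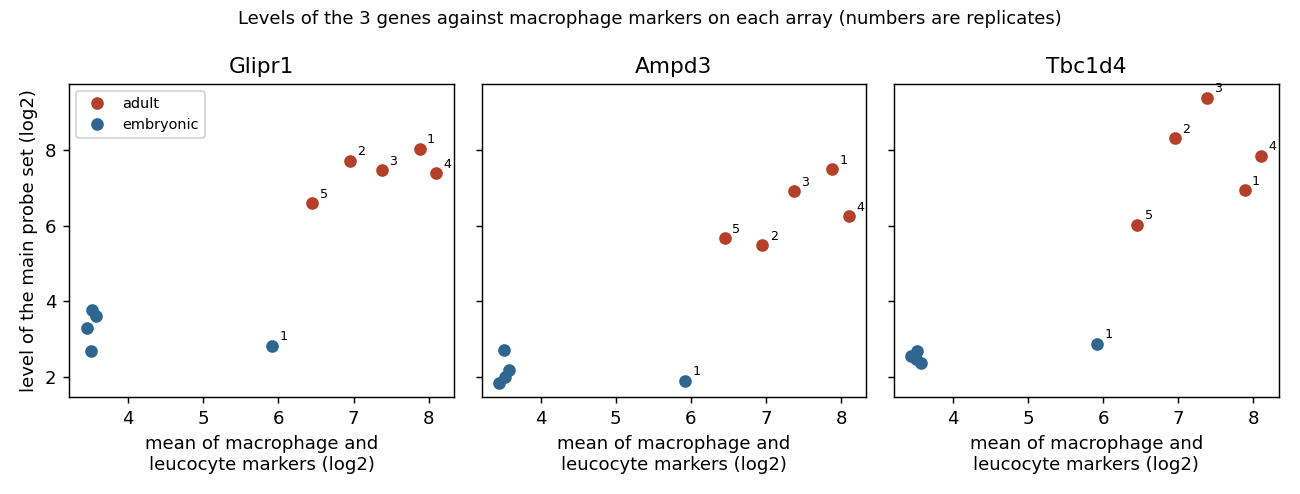
Level of Glipr1, Ampd3 and Tbc1d4 (log2, main probe set) against the mean level of 28 macrophage and leucocyte markers (log2) on each array, with adult arrays and embryonic replicate 1 numbered. Embryonic replicate 1 has a marker mean of 5.92, near the lowest adult value of 6.45, while the 3 genes are at 2.82, 1.90 and 2.87 on it. The choice of the 3 genes favoured low values on every embryonic array. Rgs1 and Tlr1 (not shown), among the genes most like Tbc1d4, were also low on embryonic replicate 1 (2.68 and 2.01).

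Markers of T and natural killer cells had 0 of 16 genes past the test (1 at an unadjusted p under 0.05; median difference 0.06). Their mean level was 2.66 to 3.27 on adult and 2.55 to 3.21 on embryonic arrays, and Cd3e of the T cell receptor complex was below background on all 10. Blood cell markers had 0 of 11 genes higher and 1 lower (0.612% and 0.647% over all genes), and 4 at an unadjusted p under 0.05 (13.3% over all genes). Their mean level was 2.53 to 3.58 on adult and 3.69 to 4.57 on embryonic arrays, and the part of blood cells in the level of Ampd3 was not tested. The gene that fell was the embryonic globin Hbe1 (at least 5.37-fold lower; adjusted p = 0.011). Hbb was at 5.55 ± 1.73 in adult and 9.02 ± 1.24 in embryonic samples (SD, n = 5 each; adjusted p = 0.10), and Alas2, the erythroid enzyme of haem synthesis, was above background on 0 adult arrays and 1 embryonic array.

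Sensory neuron and axon markers had 0 of 17 genes higher and 6 lower (0.612% and 0.647% over all genes), with a median difference of -2.23. An unadjusted limma p under 0.05 was reached by 10 of them (13.3% over all genes). Without adult replicate 4 or embryonic replicate 5, 3 were lower. Their mean level was 4.84 to 6.41 on adult and 6.30 to 8.65 on embryonic arrays. Prph, the intermediate filament peripherin, changed by -4.32 ± 0.71 (SE; adjusted p = 0.020), and lost the call without adult replicate 3 or 4 or embryonic replicate 2, 3 or 5 (adjusted p of 0.052 to 0.063). Schwann cell, satellite glial, fibroblast, endothelial, muscle and adipocyte markers had 0 genes past limma's test among 11, 7, 12, 10, 14 and 8, and 2, 1, 3, 2, 2 and 1 at an unadjusted p under 0.05 (13.3% over all genes). Their median differences were 0.29, 0.04, 0.33, 0.20, -0.15 and 0.12. The mean fibroblast marker level varied over adult arrays from 2.89 to 5.73, and was 3.27 to 4.50 on embryonic arrays. Among the muscle and fat markers, where the role of Tbc1d4 in glucose uptake is best known, 9 of 14 and 5 of 8 were below background on all adult arrays. In each list 1 gene was above it on all 5, the myosin heavy chain Myh1 (10.27 ± 0.96 in adult and 12.20 ± 0.21 in embryonic samples; adjusted p = 0.069) and the adipsin gene Cfd (5.43 ± 1.58 and 3.41 ± 1.58; adjusted p = 0.48), both named after their values were seen.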

How the data were processed

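Expression values for 10 arrays (5 adult, 5 embryonic) were used as deposited. They are log2 values made by the authors with RMA, per the submitters' processing notes; its version, options and whether it was run jointly on the 10 arrays are not stated in the labels. Base 2 was taken from the range of the values. RMA compresses differences of weak probe sets, and precision is limited by how many arrays there were. The platform annotation gave 1 symbol for 20826 of 31042 probe sets, several for 436 and none for 9780. Each gene was represented by the brightest (mean over 10 arrays) of its probe sets with 1 symbol. No pseudocount or filter was used.

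The stages were compared in limma 3.58.1 under R 4.3.3 (lmFit and eBayes, adult over embryonic, two-sided) across all non-control probe sets, with Benjamini-Hochberg adjustment and a threshold of 0.05, which called 179 genes. Every adjusted p of a gene is from this fit. Array measures were compared by exact permutation with scipy 1.17.1. Where no array of a stage exceeded background, the fold was bounded: on each of its arrays the background level, or the gene's value if higher, stood in, and these were averaged. The fit was tested on simulated data. Figures used Python 3.11.15 and matplotlib 3.10.9.

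The members, gene lists, tests and alternatives were chosen with earlier results of these data known. Genes were named by a rule: the members; the 3 most alike by either correlation; chromosomal neighbours; up to 4 called genes of each pathway list; and a fixed set of pathway and marker genes, of which Glipr2, Pi15 and Foxp3, among others, were not analysed here. Others named were chosen after their values were seen. Alternatives were other scalings, leaving out weak probe sets, trended robust variances, array weights, blocks, other probe set summaries, 2 more background levels, and omission of single arrays.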

Additional observations from a re-analysis of the deposited data

Results flagged for a closer look

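In 5 of 100 groups of 5 arrays looked at, 1 array lay far from the other 4 by Dixon's criterion, and chance alone gives about 5. On embryonic replicate 1, Adgre1 was at 5.61, against 1.94 to 2.78 on the other embryonic arrays, and Ptprc was at 4.31, against 2.70 to 3.04. Adsl was at 9.09 on adult replicate 3 and at 4.73 to 5.85 on the other adult arrays. Sgsm2 was at 3.57 on adult replicate 3 and at 2.66 to 2.93 on the others. Mfsd4b1 was at 4.88 on embryonic replicate 3 and at 3.41 to 3.51 on the others. No group of Glipr1, Ampd3 or Tbc1d4 had such an array.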

How the results depend on the processing

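Leaving out 1 array at a time gave differences of 4.05 to 4.41 for Glipr1, 3.95 to 4.45 for Ampd3 and 4.69 to 5.53 for Tbc1d4 on the log2 scale. The 11 other settings gave 3.77 to 4.49 for Glipr1 and 3.92 to 4.44 for Ampd3. For Tbc1d4 they gave 3.37 to 5.64, and the lowest, 3.37, was the mean of both probe sets, which lies outside 1 SD of the main difference since the second probe set differs by 1.63. Within arrays of wide spread the differences were 3.77, 3.92 and 4.31, and within those of narrow spread 4.49, 4.44 and 5.64.

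Of all genes, 179 passed the threshold. The count was 276 with array spread as a block and 330 with a filter on weak probe sets. It was 0 by limma within the 4 arrays of wide spread (2810 at an unadjusted p under 0.05). The other settings gave 135 to 241. Omitting 1 array gave 101 to 248, with 117 without adult replicate 1, 101 without adult replicate 4, and 117, 106 and 107 without embryonic replicates 2, 3 and 5. The cause was not tested. The adult share of higher calls was 87 of 179, 124 of 221 with cyclic loess, 109 of 170 without embryonic replicate 1, 81 of 232 without embryonic replicate 4 and 97 of 248 without adult replicate 5. With the replicate block there were 135 genes. Same-numbered arrays shared only a number (correlations of their deviations from -0.12 to 0.28, and 2 of 10 arrays closest to their own number). Over all settings the lists had 0 to 3 RabGAPs, 0 to 3 p53 targets, 0 to 2 blood markers and 0 to 6 sensory neuron markers lower, and 0 to 18 macrophage and leucocyte markers higher, with 0 within the 4 wide arrays for each. Without embryonic replicate 1, 1 gene of the AMP and purine list was called higher. Within narrow arrays the call was lost by Sgsm2 and Sesn2 (adjusted p = 0.079 for both), Hbe1 (0.074), Dennd4c (0.057), Rgs1 (0.10), Prph (0.11) and Tlr1 (0.12). Within wide arrays no gene was called.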
